A study of Mus musculus with 15 samples.

Results

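Fluid secretion by the acinar cells of the mouse submandibular gland was described through 10 genes, chosen by name from a list. All 10, of the 39179 genes counted, passed the filter on low counts. Male adult C57BL/6 mice gave 5 groups of glands: IR+Shh, IR+Gli1 and IR+GFP, in which Shh, Gli1 or green fluorescent protein (GFP) was transferred into the gland of irradiated mice; IR, irradiated without transfer; and NT, untreated. Every irradiated group was sampled 7 days after local irradiation of the gland, and all the mice were wild type apart from the transferred gene. Hedgehog signalling starts with secreted ligands such as Shh and ends in nuclear factors, of which Gli1 is one. The vector, the irradiation dose, the cells that took up the gene and the species of the transferred sequences are not given in the sources used here.

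In each group, 2 of the 3 libraries differed by less than sampling noise and were counted as 1 sample, which left 2 samples a group and 10 in all. The combined samples are named by both library numbers, as in IR+Gli1 1 and 2. Library depth ranged from 18205941 to 41064723 reads in genes. Nothing in the labels says which libraries came from separate animals, so p-values measure the spread between these samples, which may be technical. Mouse Gli1 had 30 and 17 reads in the IR+Gli1 samples, against 18 and 9 in IR+GFP, while it had 62 and 115 in the IR+Shh samples, and Shh had 0 reads in all 10. The transfer itself is therefore taken from the labels. Markers of acinar cells were present in every sample, with a summed level of 12980 to 54670 CPM (reads scaled to a common library size) over 12 genes. Markers of the neighbouring sublingual gland, 6 genes, summed to 36110 CPM in NT 2 and 3 and to 207.4 CPM in IR+GFP 1 and 2, against 2.774 to 5.413 CPM in the other 8 samples. Dcpp1 is on both the acinar and the sublingual list, so both sums hold its reads.

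Salivary acinar cells secrete water by moving chloride into the lumen. Acetylcholine acts on muscarinic receptors, inositol trisphosphate (IP3) opens calcium channels of the endoplasmic reticulum, and store-operated entry keeps cytosolic calcium raised. Calcium opens chloride channels of the apical membrane and potassium channels, a basolateral cotransporter reloads the cell with chloride, and water follows through an apical water channel. Among the 10 genes, Chrm1 and Chrm3 encode the M1 and M3 muscarinic receptors, Itpr2 and Itpr3 the IP3 receptors, and Stim1 the calcium sensor of the endoplasmic reticulum. Kcnn4 and Kcnma1 encode the intermediate- and big-conductance calcium-activated potassium channels, Ano1 the calcium-activated chloride channel, Slc12a2 the sodium-potassium-chloride cotransporter NKCC1, and Aqp5 the apical water channel.

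The promoter of Ano1 is shown because Ano1 was the member higher in IR+Gli1 glands than in IR+GFP glands, and Gli1 is a DNA-binding factor. The 250 bases before the start that RefSeq gives for Ano1 (GRCm38.p6, chr7:144738574-144738823, minus strand) read as follows, with capitals marking GGGCGG, the GC box.
Ano1: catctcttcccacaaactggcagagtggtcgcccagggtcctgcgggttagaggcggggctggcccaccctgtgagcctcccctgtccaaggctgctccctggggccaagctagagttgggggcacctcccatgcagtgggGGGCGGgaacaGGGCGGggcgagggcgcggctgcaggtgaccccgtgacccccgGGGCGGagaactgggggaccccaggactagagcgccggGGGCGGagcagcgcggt
This stretch was 72.0% G and C and held 4 GC boxes. The GC box was found on either strand in 32.7% of the 32851 promoter sequences of the same length, and in 7 of the 8 members that had an entry. Those sequences were not chosen by gene type, whereas the members are all protein-coding. Whether the members differ in this from other protein-coding genes was not tested. The GLI motif GACCACCCA, searched on both strands, was in 0 of those 8 and in 0.225% of all promoters. The letters of the GLI motif hold no GC box. A missing match says only that these letters are not in this window. GENCODE places Ano1 at chr7:144588549-144751974 (GRCm38, minus strand), so the start used by RefSeq lies within the gene as GENCODE draws it. Chrm1 and Slc12a2 were not matched to a promoter.

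Levels of different genes were compared as CPM scaled by the trimmed mean of M-values (TMM) and divided by the length of the gene's exons in kilobases. In NT glands Aqp5 had the highest level, 111.9 ± 48.5 CPM per kb (SD, n = 2), followed by Slc12a2 with 55.2 ± 2.69 and Kcnn4 with 27.0 ± 2.50 CPM per kb. Ano1 came next with 19.8 ± 2.84 CPM per kb, then Stim1 with 7.88 ± 0.637, Itpr2 with 7.34 ± 1.26 and Itpr3 with 4.66 ± 0.372 CPM per kb. At the low end, Chrm3 had 2.13 ± 0.354, Kcnma1 1.505 ± 0.275 and Chrm1 0.916 ± 0.529 CPM per kb. Among these neighbours in NT glands, the samples of Stim1 and Itpr2 overlapped, and the SD of Chrm1 was close to the gap between its mean and that of Kcnma1. In IR glands the order at the top was not clear: Slc12a2 had 84.8 and 100.8 CPM per kb, and Aqp5 had 72.3 and 88.7 CPM per kb. The gland therefore carried far more transcript per length for the cotransporter and the water channel than for the receptors and the big-conductance potassium channel.

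**Figure D1:**
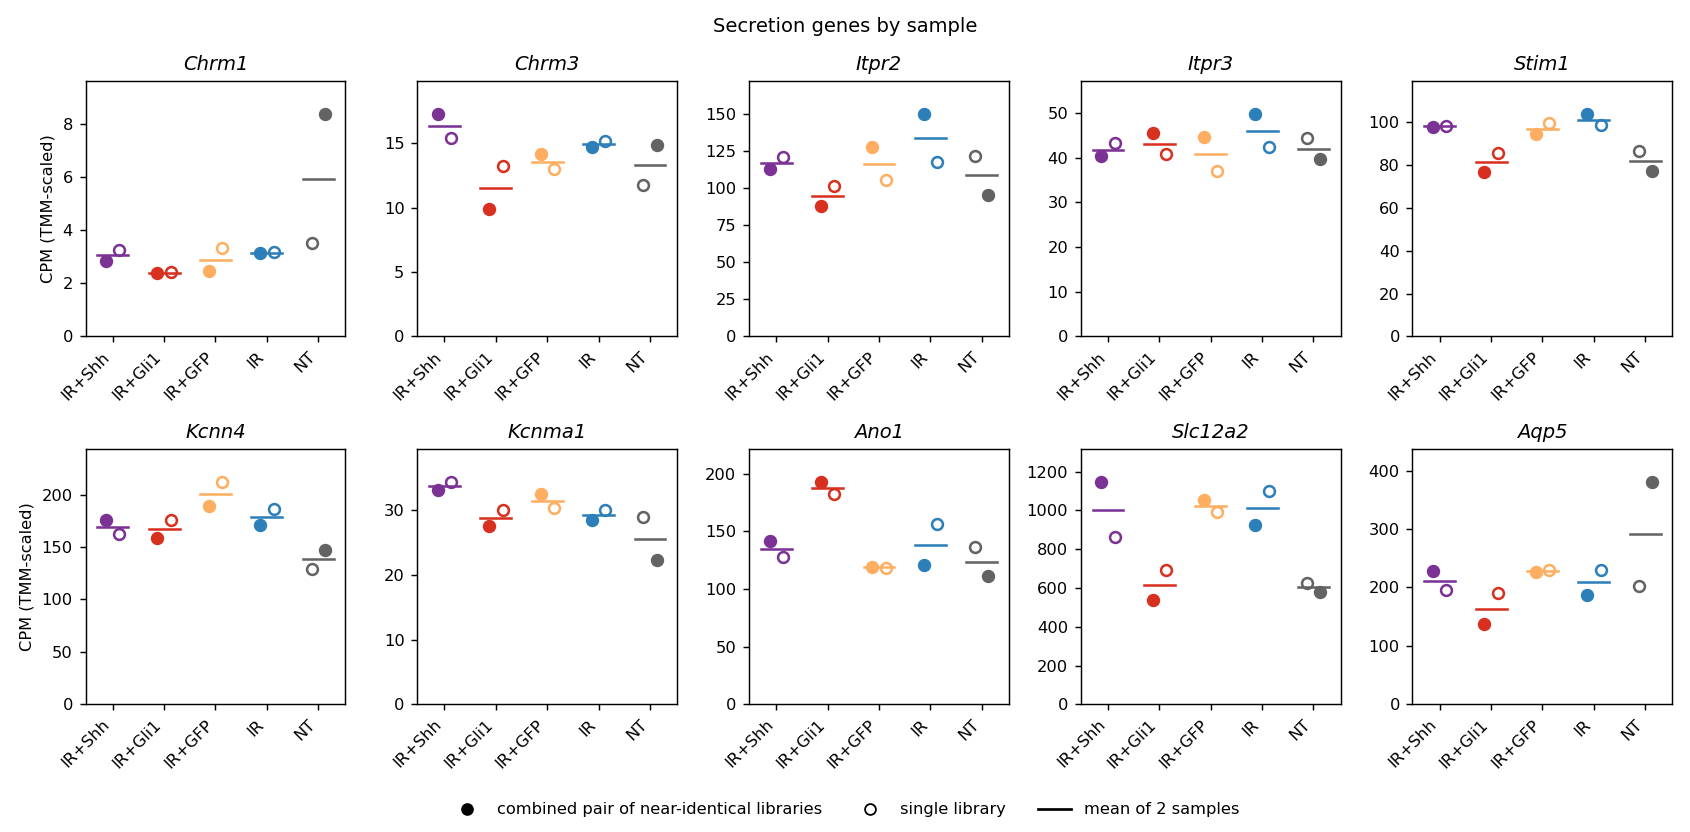
TMM-scaled CPM (linear axis from 0) of the 10 secretion genes in each of the 10 samples, by group; filled points are combined pairs of near-identical libraries, open points single libraries, and lines the mean of 2 samples. Ano1 in the IR+Gli1 samples (192.6 and 182.0 CPM) lies above every other sample, and Slc12a2 in the IR+Gli1 samples (540.0 and 690.9 CPM) lies near NT.

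The comparison of IR with NT asks what irradiation did to these genes by day 7. No member passed the test: 0 of 10 had an adjusted p under 0.05 (edgeR quasi-likelihood test, Benjamini-Hochberg over 14300 genes), where 0.678% of all genes passed. Slc12a2 was the closest. It had 926.1 and 1101 CPM in IR glands, against 623.4 and 581.8 CPM in NT glands. Both IR samples stood above both NT samples, with a log2 fold change of 0.75 ± 0.18 (SE; 95% interval 0.34 to 1.16; adjusted p = 0.0998, edgeR). The same difference passed with DESeq2 (adjusted p = 0.000621) and without the low-count filter (adjusted p = 0.00686, edgeR). These settings called 471 of 14300 and 1242 of 22949 genes, against 97 of 14300 as reported. The difference did not pass with total-count scaling (adjusted p = 0.089, edgeR) or with the compared groups alone (adjusted p = 0.103, edgeR). Leaving out 1 sample at a time gave log2 fold changes of 0.62 to 0.87. Among these fits the difference passed only without either IR+Gli1 sample, although neither is in this comparison.

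A potassium channel and a calcium sensor were also higher in both IR samples without passing. Kcnn4 had 171.1 and 186.5 CPM in IR, against 129.2 and 147.3 CPM in NT, a log2 fold change of 0.37 ± 0.12 (adjusted p = 0.166, edgeR). Stim1 had 103.4 and 98.55 CPM in IR, against 86.39 and 77.04 CPM in NT, a log2 fold change of 0.31 ± 0.10 (adjusted p = 0.173, edgeR). Neither gene's groups overlapped. In all, 3 members lay above NT in both IR samples and 1 lay below, where 23.9% and 27.3% of all genes did so.

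The member below NT was Chrm1, and its value rested on 1 NT sample. Chrm1 had 3.126 and 3.191 CPM in IR glands, against 3.519 CPM in NT 1 and 8.368 CPM in NT 2 and 3, the sample with sublingual transcripts. The log2 fold change was -0.91 ± 0.36 (adjusted p = 0.238, edgeR), and Chrm1 had only 54 to 228 reads in each of the 10 samples. Aqp5 showed the same split of the NT group. It had 187.9 and 230.6 CPM in IR glands, against 201.8 CPM in NT 1 and 380.1 CPM in NT 2 and 3, a log2 fold change of -0.48 ± 0.28 (adjusted p = 0.425, edgeR), which became 0.05 when NT 2 and 3 was left out. The part of sublingual tissue in the NT levels of these genes was not tested. Chrm3, Itpr2, Itpr3, Kcnma1 and Ano1 had log2 fold changes of 0.13 to 0.30 in IR against NT, with overlapping samples.

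The wider secretory pathway was described through 79 further genes by role, of which 67 passed the filter on low counts. In IR against NT, 1 of these 67 rose and 0 fell, where 0.517% of all genes rose and 0.161% fell. The median log2 fold change of the 67 was -0.04, against -0.02 over all genes. The gene that rose was Clcn2, a hyperpolarisation-activated chloride channel. Clcn2 had 83.11 and 74.10 CPM in IR glands, against 56.09 and 52.85 CPM in NT glands, a log2 fold change of 0.53 ± 0.10 (adjusted p = 0.0479, edgeR). With scaling by the total count in place of TMM the adjusted p was 0.209, and it was 0.0801 to 0.418 without any 1 of NT 2 and 3, IR 1 and 2, IR 3, either IR+GFP sample or either IR+Shh sample.

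The control transfer was set against irradiation alone. In IR+GFP against IR, 0 of 10 members and 0 of 67 pathway genes passed (background 0%; 0 of 14300 genes in edgeR, 298 at an unadjusted p under 0.05, and 8 in DESeq2). The members' log2 fold changes ran between -0.22 for Ano1 and 0.16 for Kcnn4. Slc12a2 had 1052 and 989.5 CPM in IR+GFP glands, against 926.1 and 1101 CPM in IR glands. These samples overlapped, and the 95% interval of the log2 fold change was -0.40 to 0.42.

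Of the 2 comparisons of a Hedgehog gene with GFP, that of IR+Gli1 with IR+GFP was the one in which secretion genes passed. With TMM scaling 1 member rose, Ano1, the apical exit for chloride, and 1 fell, Slc12a2, the basolateral loader, although with total-count scaling Slc12a2 had a log2 fold change of 0.04. These 2 of 10 stand beside 13.9% of all genes that passed in this comparison (8.23% higher and 5.71% lower). The median log2 fold change of the 10 members was -0.26, against 0.01 over all genes.

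Ano1 had 192.6 and 182.0 CPM in IR+Gli1 glands, against 119.3 and 118.1 CPM in IR+GFP glands. Both IR+Gli1 samples were also above all other samples of the series, whose highest was 156.5 CPM in IR 3. The means were 187.3 ± 7.54 and 118.7 ± 0.871 CPM in IR+Gli1 and IR+GFP (SD, n = 2 each), a log2 fold change of 0.66 ± 0.15 (SE; 95% interval 0.33 to 0.99; adjusted p = 0.0188, edgeR). The call was lost without IR+Gli1 1 and 2 (adjusted p = 0.0889), IR+GFP 1 and 2 (0.134) or IR+GFP 3 (0.0852), with the log2 fold change at 0.60 to 0.66. In a fit of these groups alone the adjusted p was 0.0812 for Ano1 and 0.123 for Slc12a2 (edgeR).

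Slc12a2 had 540.0 and 690.9 CPM in IR+Gli1 glands, against 1052 and 989.5 CPM in IR+GFP glands. The 2 IR+Gli1 samples were lower than all 6 samples of IR+Shh, IR+GFP and IR, and their range took in the level of NT glands. The means were 615.5 ± 106.8 and 1021 ± 44.4 CPM in IR+Gli1 and IR+GFP (SD, n = 2 each), a log2 fold change of -0.73 ± 0.18 (SE; 95% interval -1.14 to -0.32; adjusted p = 0.0286, edgeR). This call was lost without IR+Gli1 1 and 2 (adjusted p = 0.154), IR+GFP 1 and 2 (0.181), IR+GFP 3 (0.0821), IR 1 and 2 (0.0506) or IR 3 (0.0504), with the log2 fold change at -0.78 to -0.58.

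The remaining 8 members did not pass. Itpr3 had a log2 fold change of 0.08 ± 0.13, and the other 7 had values between -0.48 and -0.13. Aqp5, at -0.48 ± 0.28, had 136.9 and 191.2 CPM in IR+Gli1 glands, against 226.8 and 229.7 CPM in IR+GFP glands. Both IR+Gli1 samples were lower, but they differed more from each other than the IR+GFP samples did. Stim1 had 76.72 and 85.60 CPM in IR+Gli1, against 94.42 and 99.15 CPM in IR+GFP, a log2 fold change of -0.25 ± 0.10 (adjusted p = 0.123, edgeR). Kcnn4 had 158.9 and 175.9 CPM in IR+Gli1, against 188.8 and 211.8 CPM in IR+GFP, a log2 fold change of -0.26 ± 0.12 (adjusted p = 0.177, edgeR). With TMM, 1 member lay above IR+GFP in both IR+Gli1 samples and 7 lay below, where 28.9% and 27.3% of all genes did so.

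The scaling decided the direction of most members here. The 10 most abundant genes took 24.5% and 38.1% of gene reads in IR+Gli1 1 and 2 and in IR+Gli1 3, and 45.5% to 53.2% in the other 8, and the TMM factors were 1.717 and 1.308 in IR+Gli1, against 0.865 to 0.994 elsewhere. With scaling by the total count, the median log2 fold change of all genes became 0.79, and 7 of 10 members passed as higher and 0 as lower, where 68.2% of all genes passed. Without regard to the test, 9 members lay above IR+GFP in both IR+Gli1 samples and 0 below on that scale, where 82.8% and 2.22% of all genes did so. Ano1 had there 330.4 and 237.9 CPM in IR+Gli1, against 103.2 and 104.5 CPM in IR+GFP, a log2 fold change of 1.45 ± 0.19 (adjusted p = 0.000129, edgeR). Slc12a2 had 926.3 and 903.5 CPM in IR+Gli1, against 909.9 and 876.0 CPM in IR+GFP, a log2 fold change of 0.04. Ano1 was above the median of all genes and Slc12a2 below it, an order that a change of scaling leaves nearly as it is. The 6 other members that passed on the total-count scale had log2 fold changes of 0.48 to 0.88, and Itpr3 was the 1 of them above the median of all genes.

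**Figure D2:**
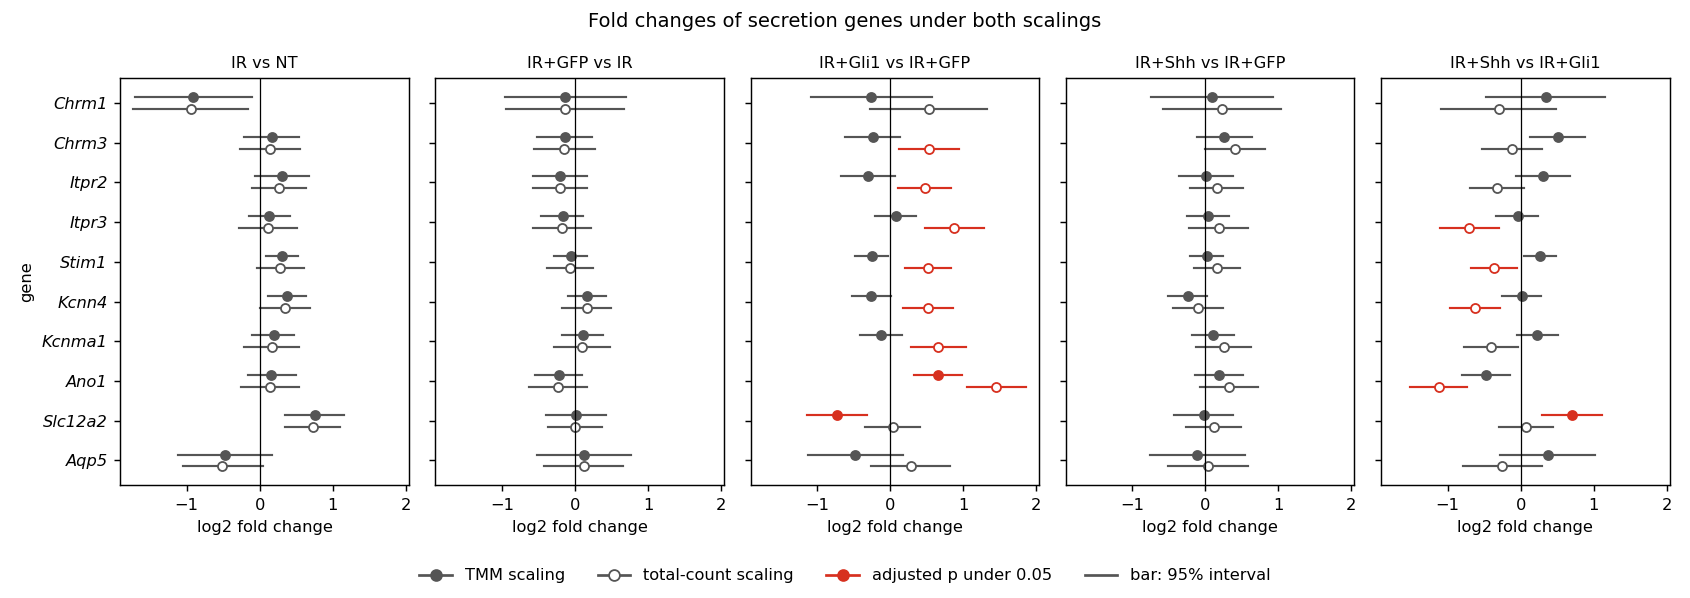
Log2 fold change of each secretion gene in the 5 comparisons, with 95% intervals, under TMM scaling (filled) and total-count scaling (open); red marks an adjusted p under 0.05. With TMM, Ano1 (0.66) and Slc12a2 (-0.73) passed in IR+Gli1 against IR+GFP and Slc12a2 (0.71) in IR+Shh against IR+Gli1, whereas total-count scaling put 7 members higher in IR+Gli1.

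Ratios of reads within a sample do not depend on the scaling, and were chosen after these values were seen. Ano1 to Slc12a2 sets the member that rose over the one that fell with TMM, so its separation of IR+Gli1 from IR+GFP followed from that choice. How often the ratios of other gene pairs separate these groups was not tested. Among single genes, 28.9% lay higher and 27.3% lower in IR+Gli1 than in IR+GFP without overlap (TMM). The ratio of Ano1 to Slc12a2 reads was 0.357 and 0.263 in IR+Gli1 glands, against 0.113 and 0.119 in IR+GFP glands. It was 0.124 and 0.148 in IR+Shh glands, 0.130 and 0.142 in IR glands, and 0.218 and 0.191 in NT glands. Both IR+Gli1 samples were thus above every NT sample, and the other 6 irradiated samples were below both NT samples. The ratio of Kcnn4 to Slc12a2 was 0.294 and 0.255 in IR+Gli1, against 0.179 and 0.214 in IR+GFP, and it was 0.207 and 0.253 in NT. Within the IP3 receptors, the ratio of Itpr2 to Itpr3 reads was 1.928 and 2.481 in IR+Gli1, against 2.858 and 2.841 in IR+GFP, and it was 2.745 and 2.407 in NT. For both of these ratios IR+Gli1 stood apart from IR+GFP, while IR+Gli1 3 was close to NT 2 and 3. The ratio of Aqp5 to Slc12a2 also stood apart, at 0.253 and 0.277 in IR+Gli1 against 0.216 and 0.232 in IR+GFP. Other ratios overlapped between these groups. Kcnn4 to Kcnma1 was 5.77 and 5.876 in IR+Gli1, against 5.826 and 7.0 in IR+GFP. Chrm3 to Chrm1 was 4.12 and 5.492 in IR+Gli1, against 5.724 and 3.907 in IR+GFP.

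**Figure D3:**
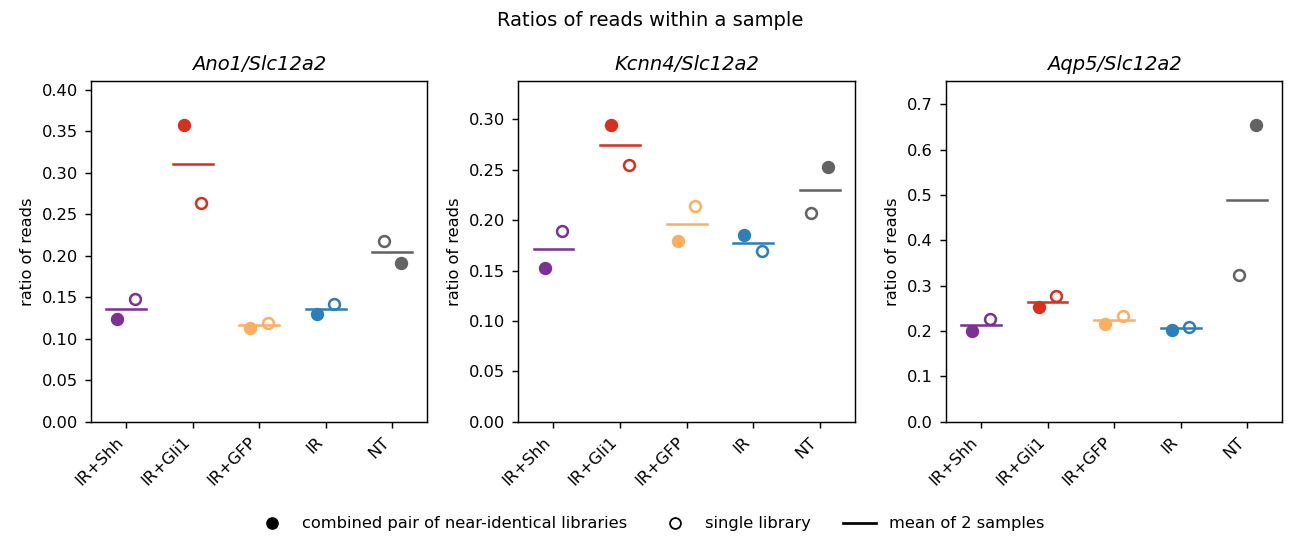
Ratios of reads between pairs of secretion genes within each sample (linear axes from 0), by group; filled points are combined pairs of libraries, open points single libraries, lines the mean of 2 samples. The ratio of Ano1 to Slc12a2 is 0.357 and 0.263 in IR+Gli1, against 0.113 and 0.119 in IR+GFP; the ratio of Aqp5 to Slc12a2 is highest in NT 2 and 3 (0.653).

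Of the 67 pathway genes tested in IR+Gli1 against IR+GFP, 3 rose and 3 fell, with a median log2 fold change of 0.01, the same as over all genes, of which 8.23% rose and 5.71% fell. In either direction 13.9% of all genes passed. Rgs2, which speeds the inactivation of Gq proteins, rose: it had 8.574 and 6.478 CPM in IR+Gli1 glands, against 2.943 and 4.244 CPM in IR+GFP glands, a log2 fold change of 1.08 ± 0.23 (adjusted p = 0.0156, edgeR). The other 2 that rose were channels, Ano6, a calcium-dependent scramblase and channel of the anoctamin family (0.64 ± 0.13), and Kcnq1, a voltage-gated potassium channel (0.55 ± 0.12). Those that fell were Mrvi1, which encodes a partner of the IP3 receptor in cGMP signalling (-0.61 ± 0.17), Saraf, an inhibitor of store-operated calcium entry (-0.44 ± 0.12), and Inpp5a, an IP3 phosphatase (-0.40 ± 0.11). The 3 that rose also passed as higher with total-count scaling (log2 fold changes of 1.33 to 1.89), but the 3 that fell had positive values there (0.17 to 0.38, none passing), below the median of all genes. Each of these 6 calls was lost without IR+GFP 1 and 2 or without IR+Gli1 1 and 2 (adjusted p = 0.0538 to 0.238, edgeR); Kcnq1 was also lost without IR+GFP 3, and the 3 that fell without any 1 of IR+GFP 3, the IR samples or the IR+Shh samples. In the fit of the compared groups alone all 6 were lost (adjusted p = 0.0826 to 0.169, edgeR). The 3 that fell were also lost without the low-count filter (0.0585 to 0.0836), and Inpp5a and Mrvi1 with DESeq2 (adjusted p = 0.0714 and 0.0735). By role, with members and pathway genes together, 2 of 6 tested chloride channels and 1 of 6 potassium channels were higher. Lower were 1 of 6 genes of calcium release, 1 of 8 of calcium entry and 1 of 16 of basolateral ion uptake and its regulators. Of 11 genes of G proteins, phospholipases and IP3 handling, 1 was higher and 1 lower. For calcium clearance 0 of 10 genes passed, as did 0 of 11 receptors and 0 of 3 water channels.

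Markers of other cell types also differed in this comparison with TMM scaling, in which 8.23% of all genes were higher and 5.71% lower. Leukocyte markers (10 genes, 7 tested, 5 higher) summed to 210.5 and 89.08 CPM in IR+Gli1, against 13.90 and 24.60 CPM in IR+GFP. Markers of the granular convoluted tubule (8 genes, 7 lower) summed to 41340 and 78730 CPM in IR+Gli1, against 199700 and 179700 CPM in IR+GFP. Of 4 endothelial markers 1 was higher, Pecam1 (log2 1.00), with sums of 38.04 and 31.80 CPM in IR+Gli1, against 19.96 and 27.43 CPM in IR+GFP. Of 3 tested parotid markers 1 was lower, Amy1, an amylase (log2 -0.75), with sums of 9541 and 17790 CPM in IR+Gli1, against 24720 and 23260 CPM in IR+GFP. Over all samples the parotid list summed to 9541 to 24720 CPM, and Bpifa2 on it is also on the sublingual list. Whether the parotid list marks parotid tissue in these glands was not tested. Of 11 tested genes on the acinar list 9 did not pass, and the median log2 fold change was -0.43. Bhlha15, the transcription factor Mist1 of secretory cells, was lower (log2 -0.82). Slc5a5, the sodium-iodide symporter, was higher (log2 1.09), but whether it marks acinar cells in these glands was not tested. The acinar list summed to 12980 and 45130 CPM in IR+Gli1, against 32320 and 54670 CPM in IR+GFP. Of the tested markers of the sublingual gland, myoepithelial and smooth muscle, skeletal muscle, fibroblasts, adipocytes and nerve, 0 passed. Of 7 tested markers of other duct cells, 0 passed, with sums of 611.5 and 582.1 CPM in IR+Gli1 against 466.7 and 523.6 CPM in IR+GFP. With total-count scaling the parotid sums overlapped, at 16370 and 23260 CPM in IR+Gli1 against 21380 and 20590 CPM in IR+GFP. Sums of other duct cells were then 1049 and 761.1 CPM in IR+Gli1, against 403.5 and 463.5 CPM in IR+GFP. Of all genes, 82.8% lay higher without overlap on that scale. Leukocyte and granular tubule sums kept their direction there. The part of these shifts in the levels of Ano1 and Slc12a2 was not tested, and in whole glands fewer cells of a type and less RNA per cell cannot be told apart. Reads with several alignments made up 8.219% of reads in IR+GFP 3 and 7.528% in IR+Gli1 3, whereas the remaining 13 libraries had 2.891% to 4.793%. Without IR+GFP 3 and IR+Gli1 3, the log2 fold change in IR+Gli1 against IR+GFP was 0.68 for Ano1 (adjusted p = 0.0648) and -0.97 for Slc12a2 (adjusted p = 0.0283, edgeR). That leaves 1 sample on each side, and these p-values take their spread from the IR+Shh, IR and NT samples.

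**Figure D4:**
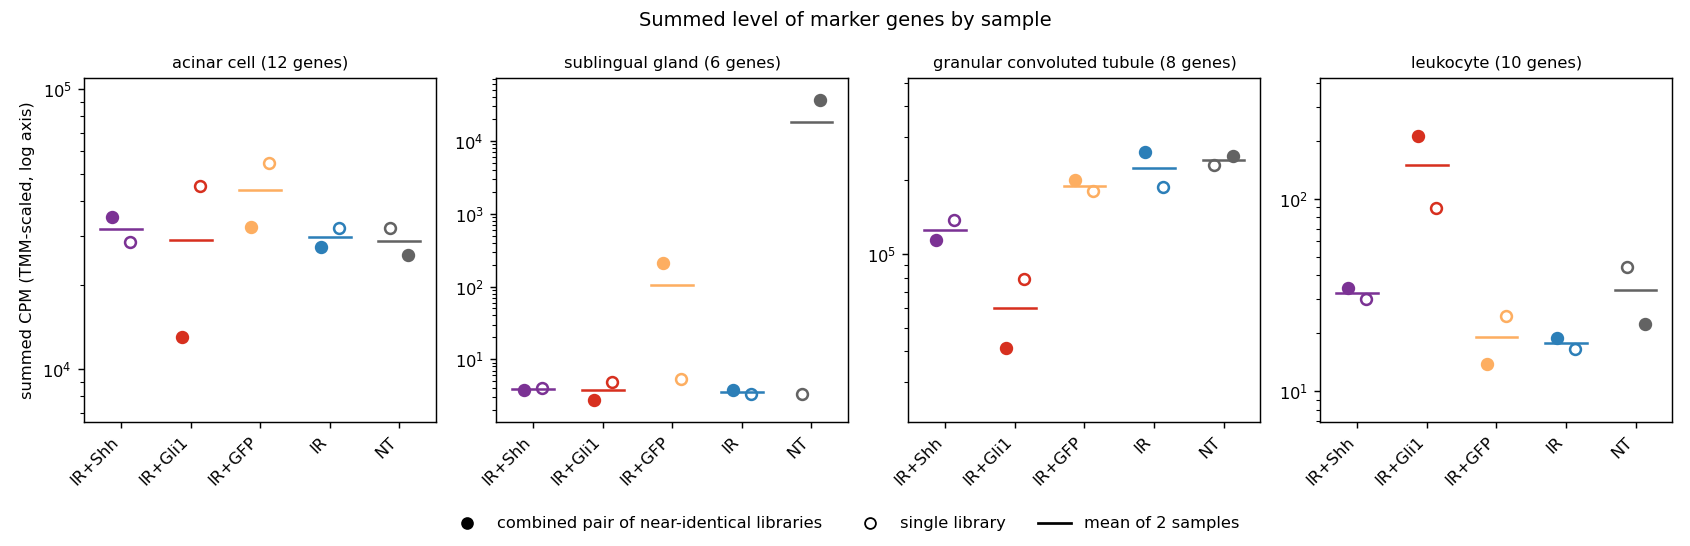
Summed TMM-scaled CPM (log axes) of marker genes of acinar cells, the sublingual gland, the granular convoluted tubule and leukocytes in each sample, by group; filled points are combined pairs of libraries, open points single libraries, lines the mean of 2 samples. Sublingual markers are high in NT 2 and 3 (36110 CPM), and the IR+Gli1 samples are lowest for the granular convoluted tubule (41340 and 78730 CPM) and highest for leukocytes (210.5 and 89.08 CPM). Dcpp1 is in both the acinar and the sublingual sums.

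No secretion gene passed between Shh transfer and the GFP control. In IR+Shh against IR+GFP, 0 of 10 members and 0 of 67 pathway genes passed (background 0%; 0 of 14300 genes in edgeR, 872 at an unadjusted p under 0.05, and 34 in DESeq2). Slc12a2 had 1145 and 862.7 CPM in IR+Shh glands, against 1052 and 989.5 CPM in IR+GFP glands, and the 95% interval of its log2 fold change was -0.43 to 0.38. Ano1 had 141.7 and 128.1 CPM in IR+Shh, against 119.3 and 118.1 CPM in IR+GFP, with an interval of -0.14 to 0.51. Both IR+Shh samples of Ano1 were above both IR+GFP samples, and those of Slc12a2 lay on either side of them. In all, 3 members lay above IR+GFP in both IR+Shh samples and 1 lay below, where 21.7% and 20.4% of all genes did so. The members' log2 fold changes ran between -0.24 for Kcnn4 and 0.26 for Chrm3, and in all of them the 95% interval took in 0.

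The direct comparison of IR+Shh with IR+Gli1 uses the same IR+Gli1 samples. Slc12a2 rose, with 1145 and 862.7 CPM in IR+Shh glands against 540.0 and 690.9 CPM in IR+Gli1 glands, and no overlap. The log2 fold change was 0.71 ± 0.18 (adjusted p = 0.0474, edgeR), and 1 of 10 members passed where 7.76% of all genes did. The call was near the threshold: its adjusted p was 0.0517 in the fit that paired IR+Gli1 samples with IR+GFP samples by number, 0.146 with the compared groups alone, 0.697 with total-count scaling, and 0.0503 to 0.306 in 8 of the 10 fits that each left out 1 sample, all but those without NT 2 and 3 or IR+Gli1 3. Ano1 had 141.7 and 128.1 CPM in IR+Shh, against 192.6 and 182.0 CPM in IR+Gli1, a log2 fold change of -0.47 ± 0.15 (adjusted p = 0.0779, edgeR), and it passed as lower with total-count scaling (log2 -1.12, adjusted p = 0.00113). Leukocyte markers summed to 34.33 and 30.19 CPM in IR+Shh, against 210.5 and 89.08 CPM in IR+Gli1, and their part in these differences was not tested. Chrm3 had 17.25 and 15.41 CPM in IR+Shh, against 9.871 and 13.23 CPM in IR+Gli1, a log2 fold change of 0.51 ± 0.17 (adjusted p = 0.0927, edgeR).

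Of the 67 pathway genes, 1 rose and 1 fell in IR+Shh against IR+Gli1, where 2.76% of all genes rose and 4.99% fell. Plcb4, a phospholipase C that makes IP3, had 605.4 and 647.8 CPM in IR+Shh, against 355.6 and 448.9 CPM in IR+Gli1, a log2 fold change of 0.64 ± 0.16 (adjusted p = 0.0429, edgeR) that became 0.02 with total-count scaling. Rgs2 had 3.641 and 3.871 CPM in IR+Shh, against 8.574 and 6.478 CPM in IR+Gli1, a log2 fold change of -1.01 ± 0.22 (adjusted p = 0.0304, edgeR) that was -1.68 with total-count scaling. Both calls were lost without any 1 of the IR samples, the IR+Shh samples or IR+Gli1 1 and 2 (adjusted p = 0.0628 to 0.212, edgeR), and that of Plcb4 also without either IR+GFP sample. In the fit of the compared groups alone the adjusted p was 0.117 for Plcb4 and 0.0899 for Rgs2, and in the paired fit that of Plcb4 was 0.0534 (edgeR). With total-count scaling the median of all genes in this comparison was -0.67, and 4 members, Itpr3, Stim1, Kcnn4 and Ano1, passed as lower, where 56.6% of all genes passed.

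Each transfer group was also set against NT, a choice made after the data were seen. In IR+Gli1 against NT, Ano1 rose by a log2 fold change of 0.60 ± 0.15 (adjusted p = 0.0170, edgeR) and Chrm1 fell by 1.30 ± 0.36 on the log2 scale (adjusted p = 0.0272, edgeR), where 23.7% of all genes passed. With total-count scaling 8 of 10 members passed as higher and 0 as lower, where 66.3% of all genes passed and the median of all genes was 0.79. Without NT 2 and 3 the log2 fold change in IR+Gli1 against NT was 0.45 for Ano1 (adjusted p = 0.0955, edgeR) and -0.56 for Chrm1 (adjusted p = 0.187, edgeR). Without IR+Gli1 1 and 2 the adjusted p was 0.0608 for Ano1 and 0.112 for Chrm1, and without IR+Gli1 3 it was 0.0699 for Chrm1. With total-count scaling Chrm1 had a log2 fold change of -0.55 (adjusted p = 0.189) and Ano1 one of 1.36 (adjusted p = 7.4e-05, edgeR). Slc12a2 had a log2 fold change of 0.03 in IR+Gli1 against NT, beside 0.74 (adjusted p = 0.0664) in IR+Shh and 0.76 (adjusted p = 0.103) in IR+GFP against the same NT samples. With total-count scaling Slc12a2 passed as higher in IR+Gli1, at 926.3 and 903.5 CPM, against 549.9 and 528.8 CPM in NT (log2 0.76, adjusted p = 0.00199, edgeR). It also passed as higher in IR+Shh against NT on that scale (log2 0.84, adjusted p = 0.0216, edgeR), the 1 of 10 members to do so where 1.65% of all genes passed; with TMM 0 of 10 passed there, beside 2.26% of all genes.

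Over all 8 irradiated samples, Kcnn4 was the member above both NT samples under both scalings. With TMM it ranged from 158.9 to 211.8 CPM in irradiated glands, with a median of 175.8, against 129.2 and 147.3 CPM in NT glands; 8.59% of all genes were above NT in this way. With total-count scaling Kcnn4, Slc12a2 and Stim1 were above both NT samples in all 8, as were 11.8% of all genes. Chrm1 was below both NT samples in all 8 with TMM, as were 9.30% of all genes, and overlapped NT with total-count scaling. With TMM, Itpr3 varied little, from 37.03 to 49.71 CPM in irradiated glands, against 44.38 and 39.64 CPM in NT glands. On the total-count scale it ranged more widely, from 32.78 to 77.99 CPM in irradiated glands, against 36.03 and 39.15 CPM in NT glands.

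The members also varied together to different degrees. Across the 10 samples, Pearson's r between TMM-scaled log2 levels was highest among members for Slc12a2 and Stim1 (0.896) and for Aqp5 and Chrm1 (0.829), the pair with the high NT sample that held sublingual transcripts. The highest r of Ano1 with any other member was 0.116, with Kcnma1. Of the 7080 genes averaging at least 10 CPM, the one most like Ano1 was Slc24a3 (r = 0.957), the one most like Slc12a2 was Tdp2 (0.976), and the one most like Kcnn4 was Pacs2 (0.955). For Aqp5 it was Unc5a (0.971), for Stim1 Tbc1d1 (0.956), for Itpr2 Magi1 (0.973), for Itpr3 Camk2g (0.934), for Chrm3 Myrip (0.942), for Kcnma1 Slc10a5 (0.962), and for Chrm1, out of 7081, Atp8b1 (0.975). These samples share 5 groups and a scaling, and the values are descriptions.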

How the data were processed

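The authors deposited 1 table of raw read counts by Ensembl gene for each of 15 libraries. Per the submitters' processing notes, the genome builds were mm10 and GRCm38 and the tools HTSeq 0.10.0, TopHat2 2.0.13, Bowtie 0.12.2 and DESeq2; strand mode and annotation release are not given in the sources used here. Per the labels' protocols, column-purified RNA went into a TruSeq RNA kit. Between 6.976% and 13.87% of reads were given to no single gene and were left out. Symbols came from GENCODE vM21 for 96.2% of genes. Overlapping genes, Itpr3os among them, had 0 to 7 reads over the 15 libraries.

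Near-identical libraries were found by the mean chi-square per gene over genes with at least 20 reads, which was 0.215 to 0.337 in 5 pairs and 22.0 to 222.7 in the 10 others within groups. Each such pair was combined by the rounded mean, and 1 edgeR 4.0.16 model (R 4.3.3) held all 10 samples: filterByExpr, TMM, 1 mean per group, robust quasi-likelihood tests with 5 residual degrees of freedom, a common biological coefficient of variation of 0.191, and Benjamini-Hochberg adjustment over 14300 genes at 0.05. Tests were two-sided. Where leaving out a sample left 1 in a group, that sample was assumed to vary like the other groups, which supply the spread. Standard errors were taken as the log2 fold change over the root of F. The steps were checked on simulated data.

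The 10 members, the 79 pathway genes and the marker lists were chosen with earlier results of these data known. Named genes were all members, and up to 8 passing pathway genes by smallest p, except in comparisons of a transfer group with NT. There, with TMM, 8 of 67 pathway genes rose and 7 fell in IR+Gli1, beside 12.3% and 11.4% of all genes. In IR+Shh against NT 1 of 67 rose and 0 fell, beside 1.36% and 0.902% of all genes. In IR+GFP against NT 0 of 67 passed, beside 0.741% of all genes. Promoters are from RefSeq (GRCm38.p6). Of 30 same-numbered pairs of libraries, correlated deviations (r over 0.1) were found in 3, all between IR+Gli1 and IR+GFP libraries (r of 0.463 to 0.489), where numbers 1 and 2 are 1 sample in each group. These groups were therefore taken as paired in a fit with a shared term for IR+GFP 3 and IR+Gli1 3, in which Ano1 and Slc12a2 still passed in IR+Gli1 against IR+GFP; no label gives a reason for the pairing. Alternatives were other scalings, no low-count filter, DESeq2 1.42.0, 15 libraries with and without a replicate block, the deeper library of each pair, the compared groups alone, and leaving out each sample, or IR+GFP 3 and IR+Gli1 3 together; the fit with the shared term, the comparisons with NT and the ratios were added after seeing the data.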

Additional observations from a re-analysis of the deposited data

How the results depend on the processing

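With 2 samples a group, leaving out 1 sample moved many calls. Of 1600 alternative values of members' log2 fold changes, 1440 kept their direction and side of the threshold (58 of them changed sign by under 1 SE with no call), 98 came to pass, 31 no longer passed and 31 turned round. Members called among 10, in IR against NT (0 as reported), were 2 with no low-count filter, 1 with DESeq2, 6 with 15 separate libraries and 7 with the replicate block in them, and 0 to 1 when samples were left out. In IR+Gli1 against IR+GFP (2 as reported) they were 7 with total-count scaling, 7 with 15 libraries, 7 with the replicate block, 0 with the compared groups alone, 1 without IR+GFP 3 and IR+Gli1 3, and 0 to 2 when 1 sample was left out. In IR+Shh against IR+Gli1 (1 as reported) they were 4 with total-count scaling, 3 with no filter, 2 with DESeq2, 6 with 15 libraries, 7 with the replicate block, 0 with the compared groups alone, 2 without IR+GFP 3 and IR+Gli1 3, 0 with these set apart as a replicate block, and 0 to 2 when 1 sample was left out. IR+GFP against IR and IR+Shh against IR+GFP gave 0 members in every fit run. Among all genes, IR against NT called 97 as reported, 1242 with no filter, 471 with DESeq2, 4154 with 15 libraries, 4048 with the replicate block, 311 without IR+GFP 3 and IR+Gli1 3, 182 with these as a block, and 9 to 538 when 1 sample was left out. IR+GFP against IR called 0, and 210 with no filter, 8 with DESeq2, 5 with 15 libraries, and 0 to 1 when 1 sample was left out. IR+Gli1 against IR+GFP called 1993, and 9749 with total-count scaling, 6518 with 15 libraries, 6495 with the replicate block, 1 with the compared groups alone, and 91 to 2987 when 1 sample was left out. IR+Shh against IR+GFP called 0, and 435 with no filter, 34 with DESeq2, 538 with 15 libraries, 433 with the replicate block, 24 with the compared groups alone, and 2 both without IR+GFP 3 and IR+Gli1 3 and with these as a block. IR+Shh against IR+Gli1 called 1109, and 8092 with total-count scaling, 2639 with no filter, 6065 with 15 libraries, 6092 with the replicate block, 9 with the compared groups alone, 2392 without IR+GFP 3 and IR+Gli1 3, and 0 to 2286 when 1 sample was left out. Fits of 15 libraries count near-identical libraries as replicates. With IR+GFP 3 and IR+Gli1 3 as a block, Slc12a2 and Plcb4 in IR+Shh against IR+Gli1 were the named calls lost. With total-count scaling the log2 fold changes that turned round were, in IR+Gli1 against IR+GFP, 0.53 for Chrm1 and Chrm3, 0.48 for Itpr2, 0.52 for Stim1 and Kcnn4, 0.66 for Kcnma1, 0.04 for Slc12a2 and 0.28 for Aqp5. In IR+Shh against IR+Gli1 they were -0.30 for Chrm1, -0.12 for Chrm3, -0.32 for Itpr2, -0.36 for Stim1, -0.62 for Kcnn4, -0.41 for Kcnma1 and -0.25 for Aqp5, and in IR+Gli1 against NT 0.52 for Chrm3, 0.54 for Itpr2 and 0.74 for Stim1. Among the passing pathway genes, Inpp5a turned to 0.38, Mrvi1 to 0.17 and Saraf to 0.33 in IR+Gli1 against IR+GFP with total-count scaling, and of their 180 alternative values 110 kept the call. Slc12a2 in IR+Gli1 against NT was -0.17 without IR+GFP 3 and IR+Gli1 3. Leaving out 1 sample also turned round some log2 fold changes that had not passed. Their ranges were -0.04 to 0.34 for Ano1 and -0.86 to 0.05 for Aqp5 in IR against NT, -0.05 to 0.22 for Itpr3 in IR+Gli1 against IR+GFP, and -0.09 to 0.18 for Itpr3 and -0.24 to 0.16 for Slc12a2 in IR+Shh against IR+GFP. Against NT they were -0.07 to 0.29 (Itpr2), -0.20 to 0.10 (Ano1) and -0.74 to 0.17 (Aqp5) in IR+GFP, -0.02 to 0.36 (Kcnma1) and -0.17 to 0.19 (Slc12a2) in IR+Gli1, and -0.06 to 0.29 (Itpr2) and -0.84 to 0.07 (Aqp5) in IR+Shh. The cause of these shifts was not tested.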
